A study of Mus musculus with 16 samples.

Results

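Myosin light chains and their kinases were followed in *gastrocnemius* muscle as 9 of the 24454 genes counted: the light chains *Myl1*, *Myl2*, *Myl3*, *Myl4*, *Myl6*, *Myl6b* and *Mylpf* and the kinases *Mylk2* and *Mylk4*. They were taken by name, with the Entrez identifiers of the counts table matched to mouse symbols, and all 9 passed the filter on low counts that left 15487 genes for testing. RNA-seq covered 16 mice of 3 months of age, with a library for each mouse. HSALR mice carry a human skeletal actin transgene with long CTG repeats, expressed in skeletal muscle only, and model Myotonic Dystrophy type I. They received vehicle (n = 5) or AICAR (n = 5), while control mice of the FVB background without the transgene received vehicle (n = 3) or AICAR (n = 3). AICAR, an activator of AMP-activated protein kinase, was given at 500 mg/kg for 7 days, and what the vehicle contained was not given in the sources used here. RNA came from powder of the whole muscle, so fewer fibres of a type and less RNA per fibre cannot be told apart in any value.

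Each myosin head of a sarcomere holds an essential and a regulatory light chain, which support its lever arm. *Myl1* encodes the fast essential chains and *Mylpf* the fast regulatory chain, whereas *Myl3* and *Myl2* encode the essential and regulatory chains shared by slow fibres and cardiac ventricle. *Myl4* encodes the essential chain of embryonic muscle and cardiac atrium, *Myl6* that of non-muscle and smooth muscle myosin, and *Myl6b* a related essential chain known from slow and non-muscle tissues. *Mylk2* encodes the skeletal muscle myosin light chain kinase, which binds calcium-calmodulin, phosphorylates the regulatory chain and thereby potentiates force. *Mylk4* encodes a less studied member of the same kinase family.

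Between 64890014 and 81987726 reads per library were counted on genes, and the 9 genes had at least 230 counts in every library. The muscle markers *Acta1*, *Ckm*, *Ttn*, *Des* and *Myh4* summed to between 88900 and 151000 normalized CPM (counts scaled to a common library size with TMM factors), and the cardiac atrial markers *Myl7* and *Nppa* were at or near 0. A control mouse given vehicle, mouse S450, stood apart from the other 15: its 8 slow-fibre markers summed to 12500 normalized CPM, against 1810 to 5410 elsewhere. Values without this mouse are given beside results that it moved. Control mouse S449, given AICAR, had the highest sums of muscle markers (151000) and fast-fibre markers (153000) and the lowest TMM factor (0.906). The 8 epidermal markers summed to 92.3 in S450, 104 in a control mouse given AICAR and 18.6 to 187 in 4 HSALR mice given vehicle, against at most 1.21 in the other libraries, and with a score of these markers as a covariate the first 3 calls of *Myl4* and the AICAR calls of *Mylk2* below were kept. Over the 16 libraries, the sums ranged from 83200 to 153000 for fast-fibre markers, 344 to 629 for immature or denervated muscle, 149 to 1170 for cardiac (nearly all *Myh6*, highest in S450), 177 to 337 for smooth muscle, 162 to 272 for endothelium, 703 to 1170 for fibroblasts and 44.0 to 77.2 for leukocytes. Between genotypes after vehicle, 4 of 4 endothelial markers were lower and 2 of 4 leukocyte markers higher in HSALR mice (1 without S450), 1 of 5 muscle identity markers was called in each direction, and 1 of 2 cardiac markers tested (*Myh6*) was lower, a call lost without S450. None of 3 fibroblast, 5 adipocyte or 8 epidermal markers was called there with edgeR's quasi-likelihood test, with 1, 0 and 0 at an unadjusted p under 0.05. All 8 epidermal markers were lower after AICAR in HSALR mice. Of these 8, 5 were lower in HSALR than in control mice after AICAR (7 without S450). In AICAR-treated HSALR against vehicle-treated control mice, 6 were lower (0 without S450).

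Per kilobase of gene length, *Mylpf* was the most abundant of the 9 genes in every group, and *Myl1* followed. In vehicle-treated control mice, *Mylpf* had 10240 ± 1991 normalized CPM per kb (SD, n = 3) and *Myl1* 4517 ± 904, without overlap between mice. The slow chains *Myl2* (1291 ± 869 per kb) and *Myl3* (807 ± 492 per kb) came next and overlapped each other. Below them were *Mylk2* (349 ± 55.0 per kb), *Mylk4* (189 ± 71.7 per kb), *Myl6* (80.2 ± 7.09 per kb), *Myl6b* (34.7 ± 37.0 per kb) and *Myl4* (7.07 ± 1.72 per kb), and in this run only *Myl6* and *Myl6b* overlapped. The order of the kinases differed between groups. *Mylk4* was above *Mylk2* per kb without overlap after AICAR in control mice (313 against 180) and in HSALR mice (376 against 137), whereas in HSALR mice given vehicle the kinases overlapped (229 for *Mylk4* and 249 for *Mylk2*). *Myl4* was the lowest of the 9 genes in both control groups and above *Myl6b* in both HSALR groups, without overlap in vehicle-treated HSALR mice (24.9 against 11.9 per kb).

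**Figure D1:**
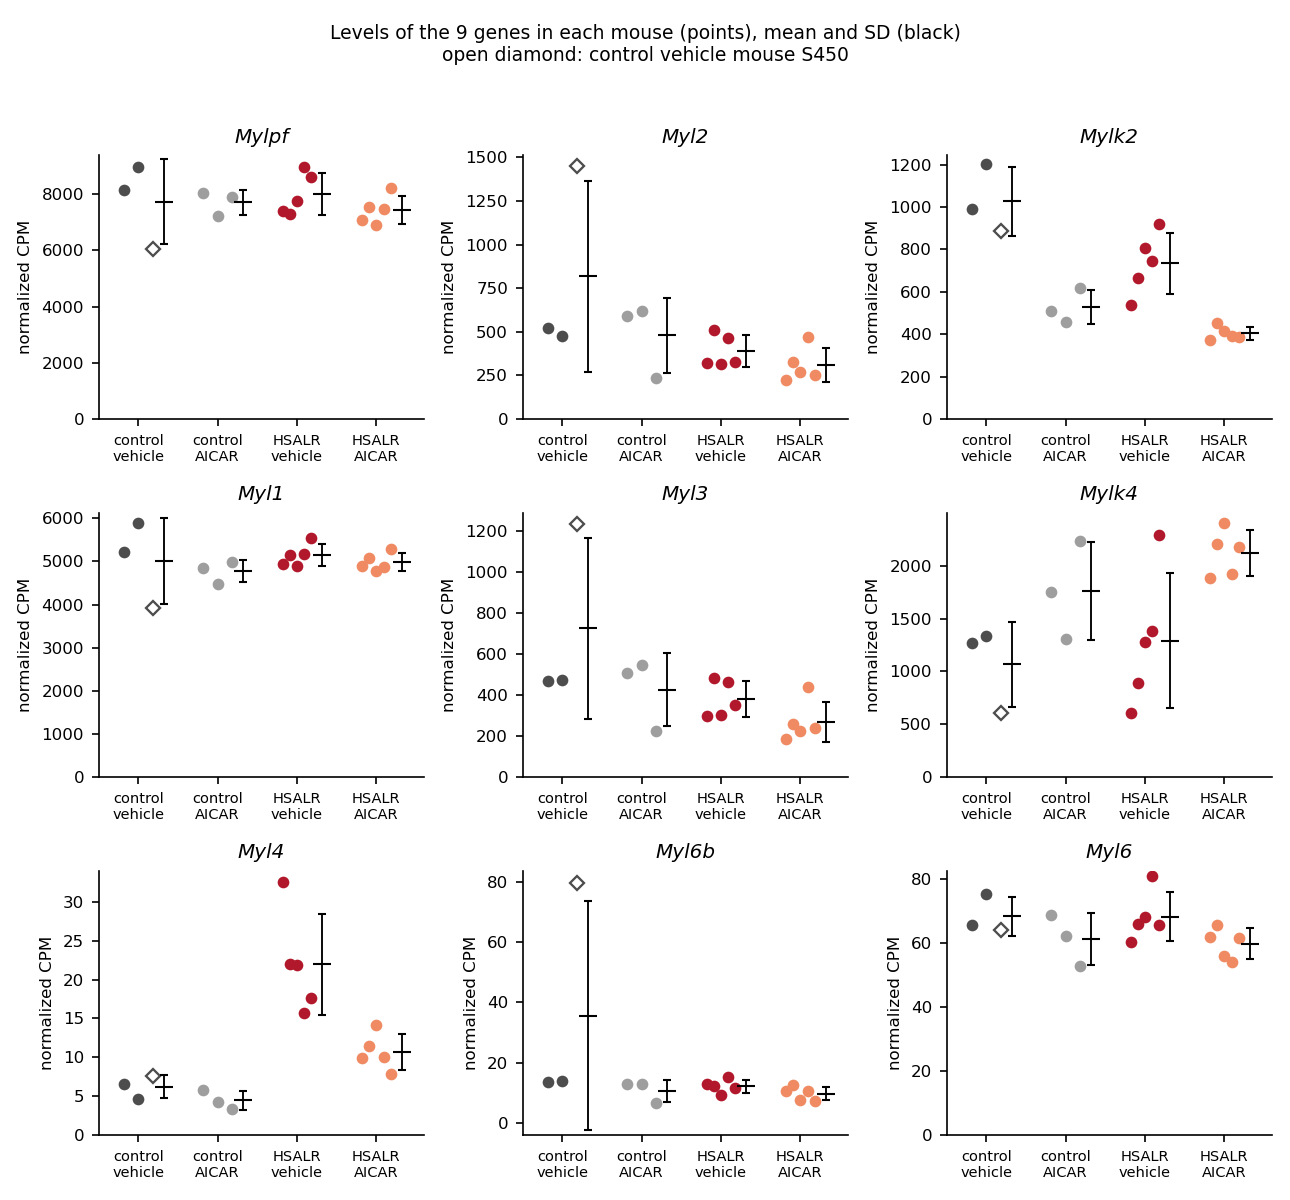
Normalized CPM (y axis) of each gene in each mouse (points) of the 4 groups (x axis), with the group mean and SD in black; the y axes differ between genes. *Myl4* was higher in both HSALR groups than in both control groups, *Mylk2* was lower in the AICAR groups than in the vehicle groups of the same genotype, and mouse S450 (open diamond) had 79.4 of *Myl6b* where the other 15 mice had 6.47 to 15.2.

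HSALR muscle had more *Myl4* transcript than control muscle after either treatment, and AICAR lowered *Mylk2* in both genotypes and *Myl4* in HSALR mice. In vehicle-treated mice, 4 of the 9 genes differed between genotypes by edgeR's quasi-likelihood test: *Myl4* was higher, and *Myl2*, *Myl6b* and *Mylk2* were lower in HSALR muscle. Of all genes tested, 26.9% were called in this comparison. Without mouse S450, *Myl4* and *Mylk2* were called and *Myl2* and *Myl6b* were not, beside 20.5% of all genes. The call of *Myl4* held in 28 of 28 alternatives and that of *Mylk2* in 24. After AICAR, 1 of the 9 genes differed between genotypes (*Myl4*, higher), beside 21.8% of all genes. AICAR changed 2 of the 9 genes in HSALR mice (*Myl4* and *Mylk2*, lower), beside 26.6% of all genes, and 2 of the 9 in control mice (*Myl6b* and *Mylk2*, lower), beside 13.2%. The call of *Myl6b* in control mice was lost without mouse S450, where 9.08% of all genes were called. The median log2 fold change of the 9 genes was -0.0015, -0.05, -0.32 and -0.49 in these 4 comparisons, against 0.0097, 0.0037, -0.02 and -0.0084 over all genes. Without S450 the median of the 9 was -0.11 in the first and -0.20 in the last of these, and comparisons that share a group of mice are not independent of each other.

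The AICAR effect of HSALR mice was set against that of control mice as an interaction term. None of the 9 genes passed the threshold with edgeR's quasi-likelihood test, beside 0.691% of all genes, and 1 of the 9 (*Myl6b*, 1.41 ± 0.66) had an unadjusted p-value under 0.05. Without S450 the interaction of *Myl6b* was 0.04 ± 0.34, and 0.224% of all genes were called. The edgeR likelihood ratio test, limma with voom and DESeq2 also called 0 of the 9, although DESeq2 gave no adjusted p-value for *Myl6b*. A difference between the genotypes in their response to AICAR was therefore not detected for any of the 9 genes, which does not show that the responses were alike. AICAR-treated HSALR mice were also compared with vehicle-treated control mice. In this comparison 6 of the 9 genes differed, beside 37.2% of all genes: *Myl4* and *Mylk4* were higher, and *Myl2*, *Myl3*, *Myl6b* and *Mylk2* were lower. Without mouse S450, 2 of the 9 (*Myl4* and *Mylk2*) were called, beside 30.2% of all genes.

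**Figure D2:**
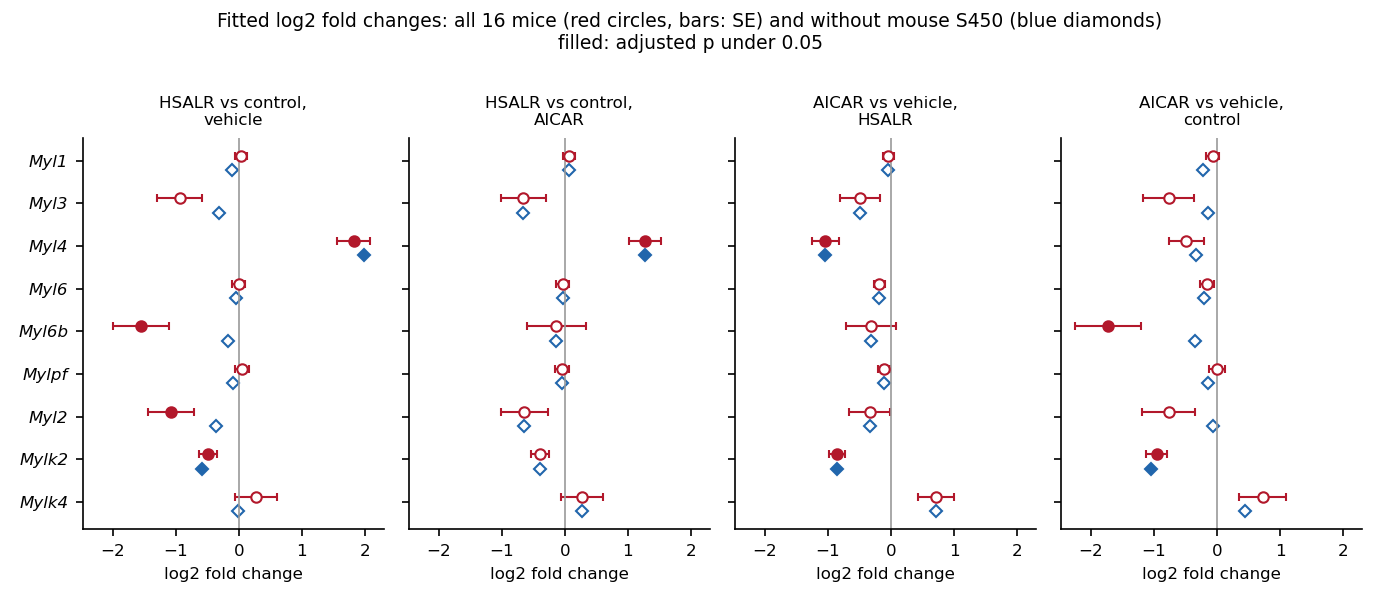
Log2 fold change (x axis) of each of the 9 genes (y axis) in the 4 comparisons within a treatment or a genotype, from the fit of all 16 mice (red circles, with SE) and from the fit without mouse S450 (blue diamonds); filled symbols have an adjusted p-value under 0.05. *Myl4* and *Mylk2* kept their calls without S450, whereas *Myl2* moved from -1.07 to -0.37 and *Myl6b* from -1.55 to -0.17 in the genotype comparison after vehicle.

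Fast essential chain *Myl1* (chromosome 1, 66924295 to 66947932, minus strand, GRCm38.p6) was the steadiest of the 9 genes together with *Mylpf*. In vehicle-treated control mice *Myl1* was at 5226, 5895 and 3921 normalized CPM, with the lowest value in S450. The ranges were 4483 to 4977 in control mice given AICAR, 4890 to 5542 in HSALR mice given vehicle and 4768 to 5291 in HSALR mice given AICAR, and all groups overlapped. Its log2 fold changes lay between -0.07 and 0.06 in the 4 comparisons, with standard errors between 0.08 and 0.11 and adjusted p-values of at least 0.68 (edgeR's quasi-likelihood test). Without S450 *Myl1* was at -0.11 ± 0.07 between genotypes after vehicle (adjusted p = 0.29) and at -0.22 ± 0.08 for AICAR in control mice (adjusted p = 0.098). The fast regulatory chain *Mylpf* (chromosome 7, 127208848 to 127214288, plus strand) was as even: 8149, 8979 and 6062 in control mice given vehicle, and between 6899 and 8973 in the other 3 groups. Its log2 fold changes lay between -0.10 and 0.05, with standard errors between 0.10 and 0.12, and none passed the test. The same comparisons of *Mylpf* gave -0.10 ± 0.09 and -0.15 ± 0.10 without S450 and did not pass either. Across the 16 mice the highest level exceeded the lowest 1.5-fold for *Myl1* and 1.48-fold for *Mylpf*, and S450 was lowest for both. Of the 50-base stretches of *Myl1* transcripts, 11.7% also occur in the pseudogene *Mylf-ps*, so a part of its reads could have been placed on either.

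The slow chains moved over a wider range and moved together. *Myl2* (chromosome 5, 122092724 to 122113473, plus strand) was at 523, 476 and 1451 normalized CPM in control mice given vehicle, the last in S450, and at 588, 620 and 233 in control mice given AICAR. HSALR mice had 323, 510, 314, 465 and 328 after vehicle and 222, 328, 269, 468 and 251 after AICAR. Apart from S450, the vehicle groups overlapped, since 1 HSALR mouse (510) lay between the other control mice. *Myl2* was lower in HSALR than in control mice after vehicle (log2 fold change -1.07 ± 0.37 SE, adjusted p = 0.041, edgeR's quasi-likelihood test), and the value without S450 was -0.37 ± 0.33 (adjusted p = 0.47). Leaving out S451, S453 or S459 among the HSALR mice given vehicle, or S455 among those given AICAR, also ended the call, which lay close to the threshold and held in 18 of 28 alternatives. It was also lost with library size only, relative to *Tbp*, with the robust fit, with voom and when the fit held the 2 compared groups alone. After AICAR the genotype difference of *Myl2* was -0.64 ± 0.37 (adjusted p = 0.23, same test). When each mouse was left out it ranged from -0.97 to -0.41, and the control mice given AICAR included 1 low mouse (S449, 233). AICAR against vehicle gave -0.34 ± 0.33 in HSALR and -0.77 ± 0.42 in control mice, with adjusted p-values of 0.49 and 0.25. Without S450 the value in control mice was -0.06 ± 0.37.

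*Myl3* (chromosome 9, 110763678 to 110769802, plus strand) gave the same picture on the essential side. Its levels were 469, 471 and 1234 in control mice given vehicle (S450 again highest) and 509, 547 and 223 in control mice given AICAR. In HSALR mice they were 297, 481, 302, 465 and 350 after vehicle and 186, 259, 227, 439 and 239 after AICAR. The groups overlapped in each of the 4 comparisons, and none passed the test: the genotype differences were -0.94 ± 0.35 after vehicle (adjusted p = 0.062) and -0.66 ± 0.36 after AICAR (adjusted p = 0.20), and the first was -0.31 ± 0.33 without S450. The first passed in 6 of 28 alternatives, namely the likelihood ratio test, the epidermal covariate and the fits without S445, S446, S449 or S462. The second ranged from -0.97 to -0.44 when each mouse was left out, and control mouse S449, given AICAR, was low (223). AICAR-treated HSALR mice were below vehicle-treated control mice without overlap for *Myl2* (-1.41 ± 0.37, adjusted p = 0.0076) and for *Myl3* (-1.43 ± 0.35, adjusted p = 0.0055). Without S450 these values were -0.70 ± 0.33 and -0.80 ± 0.33, with adjusted p-values of 0.12 and 0.076.

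*Myl2* and *Myl3* varied from mouse to mouse with other slow-fibre transcripts. *Myl2* varied 6.53-fold over the 16 mice (2.79-fold without S450), yet its count stayed between 1.07 and 1.36 times that of *Tnnt1*, the slow troponin T, and between 0.937 and 1.27 times that of *Myl3*. *Myl2* was 9.70% to 13.5% and *Myl3* 9.29% to 13.5% of the counts of the 8 slow-fibre markers as a sum. Among 12992 genes outside the 9, with a mean count of at least 50, *Tnnt1* and the slow tropomyosin gene *Tpm3* had the patterns most like that of *Myl2*. Their centred log2 levels differed from those of *Myl2* by 0.087 and 0.11 (root mean square over 16 libraries), beside a median of 0.69 over all of these genes. Both are slow-fibre markers of the list used here, and the 16 points share the composition of their libraries. *Tnnt1* itself was lower in HSALR than in control mice after vehicle (-1.03, adjusted p = 0.041) and was at -0.40 without S450 (adjusted p = 0.42). Of the 8 slow-fibre markers, 5 were called lower in this comparison (median log2 fold change -1.0, against 0.0097 over all genes), with *Myh7* (-1.37), *Casq2* (-0.91) and *Tpm3* (-1.13) the lowest in adjusted p. Without S450 0 of the 8 were called (median -0.33). None of the 8 passed the edgeR test in the genotype comparison after AICAR (median -0.70, 3 at an unadjusted p under 0.05) or for AICAR in HSALR or control mice (medians -0.42 and -0.79, 1 in each at an unadjusted p under 0.05), and without S450 the counts called lower were 3, 1 (*Casq2*) and 0. The median for AICAR in control mice was then -0.06.

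**Figure D3:**
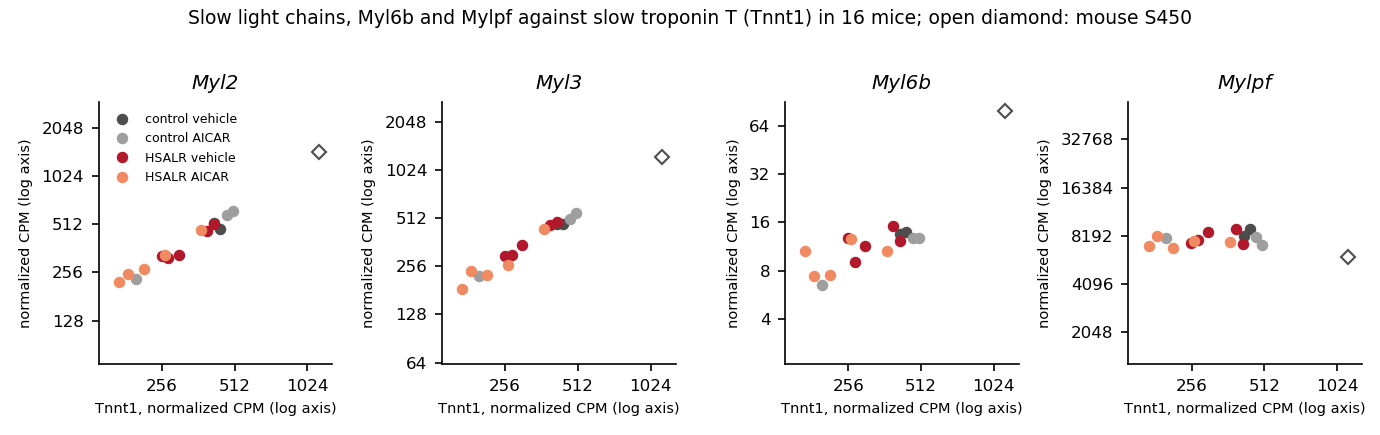
Normalized CPM of *Myl2*, *Myl3*, *Myl6b* and *Mylpf* (y axes, log scale) against that of *Tnnt1* (x axis, log scale) in the 16 mice, coloured by group, with mouse S450 as an open diamond. *Myl2* and *Myl3* followed *Tnnt1* in every group, *Myl6b* did so less closely and was set apart in S450, and *Mylpf* stayed between 6062 and 8979 over the whole range of *Tnnt1*.

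To show what lies next to these genes, the 250 bases before a RefSeq start (GRCm38.p6) are given for the slow chain *Myl3*, which varied with the slow-fibre transcripts, and for the fast chains *Myl1* and *Mylpf*, which stayed even. The starts used for *Myl1* and *Mylpf* lie inside the annotated genes. The windows are chr9:110763428-110763677 (plus strand) for *Myl3*, chr1:66945057-66945306 (minus strand) for *Myl1* and chr7:127211358-127211607 (plus strand) for *Mylpf*, written 5′ to 3′ on the strand of the gene. Capitals mark matches to the motifs searched on both strands: the CArG box of serum response factor (CCWWWWWWGG), the site of MEF2 (YTAWWWWTAR), the E-box of myogenic factors (CANNTG), the MCAT element of TEAD factors (CATTCC) and the TATA box (TATAAA). In these patterns W is A or T, Y is C or T, R is A or G and N is any base.
Myl3: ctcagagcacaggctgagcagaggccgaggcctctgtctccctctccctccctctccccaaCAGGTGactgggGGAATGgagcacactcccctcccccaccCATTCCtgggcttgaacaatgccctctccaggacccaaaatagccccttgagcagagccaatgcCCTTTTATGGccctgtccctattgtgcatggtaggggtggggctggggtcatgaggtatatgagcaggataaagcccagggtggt
Myl1: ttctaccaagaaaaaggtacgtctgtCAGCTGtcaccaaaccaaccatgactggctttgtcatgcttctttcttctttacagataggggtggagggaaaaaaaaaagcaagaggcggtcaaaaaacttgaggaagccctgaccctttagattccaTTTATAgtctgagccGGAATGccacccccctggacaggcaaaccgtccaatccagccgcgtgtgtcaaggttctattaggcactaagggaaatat
Mylpf: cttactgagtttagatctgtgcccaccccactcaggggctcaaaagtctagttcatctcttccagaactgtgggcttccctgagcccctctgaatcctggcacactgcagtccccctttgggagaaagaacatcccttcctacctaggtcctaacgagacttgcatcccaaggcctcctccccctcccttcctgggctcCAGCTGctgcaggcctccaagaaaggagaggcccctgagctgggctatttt
*Myl3* held a CArG box 85 to 76 bases before the start, an MCAT element on each strand (177 to 172 and 149 to 144 bases before) and an E-box (189 to 184). *Myl1* held an E-box (224 to 219), a TATA-box match on the other strand (95 to 90) and an MCAT element on the other strand (80 to 75), and *Mylpf* held an E-box (51 to 46). Of 32851 RefSeq windows of this length, 1.47% held a CArG box, 2.92% a MEF2 site, 12.6% an MCAT element, 12.4% a TATA box and 66.2% an E-box. The bases after the starts listed for the slow chain *Myl2* did not match its annotated transcripts. Its windows, not printed, held no CArG box or MCAT element. A window of *Myl6*, also even and not printed, held a CArG box 50 to 41 bases before the start. These matches are descriptions of the letters, and which start each muscle used was not measured.

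*Myl4*, the embryonic and atrial essential chain (chromosome 11, 104546017 to 104587215, plus strand), showed the largest genotype difference among the 9 genes. It was at 6.59, 4.58 and 7.55 normalized CPM in control mice given vehicle and at 32.5, 22.0, 21.9, 15.8 and 17.7 in HSALR mice given vehicle. After AICAR it was at 5.82, 4.23 and 3.29 in control mice and at 9.88, 11.5, 14.2, 10.1 and 7.89 in HSALR mice. Every HSALR mouse was thus above every control mouse, and the HSALR groups did not overlap each other. The fold change between genotypes was 3.52 after vehicle (log2 1.82 ± 0.26, adjusted p = 0.00013) and 2.41 after AICAR (log2 1.27 ± 0.26, adjusted p = 0.0031) by edgeR's quasi-likelihood test. AICAR lowered *Myl4* 2.05-fold in HSALR mice (log2 -1.04 ± 0.21, adjusted p = 0.0023), while the value in control mice was -0.49 ± 0.28 (adjusted p = 0.27). The difference between these AICAR effects was -0.55 ± 0.35 and did not pass the test (adjusted p = 0.49). AICAR-treated HSALR mice were still above vehicle-treated control mice, without overlap (log2 0.78 ± 0.25, adjusted p = 0.024), a call that was lost when control mouse S445 or S446 was left out, with library size only and with the epidermal covariate. The first 3 of these calls held in each of 28 alternatives.

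*Myl4* did not follow the slow-fibre transcripts. Its counts were 0.0605% of the slow-fibre marker counts in S450 and 1.14% in HSALR mouse S451, an 18.8-fold range. The genes most like it over the 16 mice were *Tdrd9* and *Il20rb*, at a root-mean-square difference of 0.25 and 0.26 on the log2 scale, where *Myl4* itself had an SD of 0.87. The 6 markers of immature or denervated muscle (*Myh3*, *Myh8*, *Myog*, *Chrng*, *Actc1* and *Ncam1*) moved in both directions after vehicle: *Myog* (1.72-fold) and *Ncam1* (2.24-fold) were higher and *Actc1* (8.87-fold) was lower in HSALR mice (median 0.29). Without S450 *Chrng* was called higher as well and the median was 0.68. Between genotypes after AICAR, 1 of the 6 was called higher and 1 lower (median 0.13). Without S450 there was again 1 in each direction (*Ncam1*, 0.95, and *Actc1*, -2.58). AICAR lowered 3 of the 6 in HSALR mice (*Myog*, *Chrng* and *Actc1*, median -0.69) and 3 in control mice (*Myog*, *Actc1* and *Myh3*, median -0.81). Without S450, 5 were called lower in HSALR mice (*Myh3* and *Ncam1* in addition) and 2 in control mice (median -0.17), where *Myh3* was no longer called. Of the 4 cardiac markers, *Myh6* made up nearly all of the sum and was at 218 to 306 in HSALR and 373 to 1173 in control mice after vehicle. The atrial gene *Nppa*, too low to be tested, had 0 counts in all 6 control libraries and 1 to 4 counts in each of the 10 HSALR libraries, and the atrial gene *Myl7* had 0 to 3 counts in both genotypes.

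The non-muscle chain *Myl6* (chromosome 10, 128490859 to 128493886, minus strand) was even across the groups, and 8.38% of the 50-base stretches of its transcripts also occur in 5 other genes. It was at 65.6, 75.1 and 63.9 in control mice given vehicle, and between 52.7 and 81.0 in the other 3 groups. Its log2 fold changes lay between -0.19 and -0.0015 with standard errors of 0.09 to 0.11, and the smallest adjusted p was 0.12, for AICAR in HSALR mice. *Myl6b* lies beside *Myl6* on the same strand (128494157 to 128498685). It was at 13.5, 13.9 and, in S450, 79.4 in control mice given vehicle, and at 12.8, 12.9 and 6.47 in control mice given AICAR. HSALR mice had 12.8, 12.2, 9.12, 15.2 and 11.4 after vehicle and 10.6, 12.6, 7.47, 10.6 and 7.42 after AICAR. Mouse S450 was 5.23 times as high as the highest of the other 15 mice, a larger excess than that of *Myl2* (2.34 times) or *Tnnt1* (2.28 times).

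The calls of *Myl6b* rested on this mouse. HSALR mice were at -1.55 ± 0.45 against control mice after vehicle (adjusted p = 0.018) and AICAR was at -1.73 ± 0.53 against vehicle in control mice (adjusted p = 0.041). Without S450 these values were -0.17 ± 0.26 (adjusted p = 0.67) and -0.36 ± 0.28 (adjusted p = 0.46). The second call was also lost without any 1 of the 3 control mice given AICAR, without S452 or S459 of the HSALR mice given vehicle, and without S454 or S462 of those given AICAR. *Myl6b* was 0.24% to 0.64% of the slow-fibre marker counts, with the highest share in S450. The genes most like it were *Cdh22* and the slow troponin C gene *Tnnc1*, at root-mean-square differences of 0.34 and 0.36. These differences were taken over all mice, S450 included, and not without it.

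*Mylk2*, the skeletal light chain kinase (chromosome 2, 152911281 to 152923065, plus strand), was lower after AICAR in every mouse than after vehicle in the same genotype. Control mice had 991, 1204 and 887 normalized CPM after vehicle and 510.5, 458.5 and 618.2 after AICAR. HSALR mice had 539, 665, 805, 745 and 919 after vehicle and 371.8, 451.7, 414.3, 392.9 and 387.7 after AICAR. The AICAR groups lay below the vehicle groups without overlap in both genotypes, and the HSALR mice given AICAR were the lowest group. AICAR lowered *Mylk2* 1.82-fold in HSALR mice (log2 -0.86 ± 0.13, adjusted p = 0.00023) and 1.94-fold in control mice (log2 -0.96 ± 0.17, adjusted p = 0.0018) by edgeR's quasi-likelihood test. The difference between the AICAR effects was 0.09 ± 0.21 (adjusted p = 0.87). Both calls held in each of 28 alternatives.

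Between genotypes *Mylk2* differed by less. It was 1.40-fold lower in HSALR than in control mice after vehicle (log2 -0.48 ± 0.14, adjusted p = 0.022), where 1 HSALR mouse (919) lay above a control mouse (887). This call was lost without control mouse S445 or S446, with levels set relative to *Tbp* and when the fit held the 2 compared groups alone, and kept without S450 (-0.58 ± 0.16, adjusted p = 0.019). After AICAR the groups did not overlap, and the difference of -0.39 ± 0.14 missed the threshold (adjusted p = 0.067). AICAR-treated HSALR mice were 2.54-fold below vehicle-treated control mice (log2 -1.35 ± 0.14, adjusted p = 6.7e-06). The patterns most like that of *Mylk2* were those of *Rtkn2* and *Mss51*, the latter a gene of skeletal muscle, at root-mean-square differences of 0.18 and 0.24.

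*Mylk4* (chromosome 13, 32700824 to 32806773, minus strand) varied widely within groups. It was at 1268, 1332 and, in S450, 602 normalized CPM in control mice given vehicle, and at 1752, 1305 and 2231 after AICAR. HSALR mice had 608, 894, 1282, 1386 and 2287 after vehicle and 1883, 2209, 2409, 1922 and 2180 after AICAR. HSALR mice given AICAR lay in a narrow range, and 1 HSALR mouse given vehicle (S459, 2287) lay inside it. AICAR against vehicle gave 0.72 ± 0.29 in HSALR mice (adjusted p = 0.081) and 0.72 ± 0.38 in control mice (adjusted p = 0.22), neither past the threshold, and the latter was 0.44 ± 0.38 without S450. The first was 1.02 with S459 left out, and it then passed, whereas leaving out any other single mouse did not change that call. With limma and voom it was 0.85 and passed (adjusted p = 0.047). The genotype differences were 0.28 ± 0.34 after vehicle and 0.27 ± 0.34 after AICAR, and the first was -0.01 ± 0.34 without S450. AICAR-treated HSALR mice were above vehicle-treated control mice without overlap (0.99 ± 0.35, adjusted p = 0.035), and this call was lost without S445 (control), S450 (control), or any 1 of S455, S460 and S463 (HSALR, AICAR), with 0.71 ± 0.36 (adjusted p = 0.15) without S450.

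Shares within a pair of genes do not depend on library scaling and were compared over mice by exact permutation tests (two-sided), with p-values adjusted over 15 comparisons. *Mylk4* made up 40.1%, 36.6% and, in S450, 26.2% of the per-kilobase counts of *Mylk2* and *Mylk4* in control mice given vehicle and 64.2%, 59.8% and 65.4% after AICAR. In HSALR mice its share was 37.1%, 41.3%, 45.4%, 49.3% and 56.5% after vehicle and 71.9% to 75.2% after AICAR. The share in S450 was the lowest of all mice, and the differences below from control mice given vehicle include it. The AICAR groups lay above the vehicle groups without overlap in both genotypes, and HSALR mice lay above control mice after AICAR. The mean share was 27.3 percentage points higher with AICAR in HSALR mice (unadjusted p = 0.0079, adjusted p = 0.089, exact permutation test) and was 28.8 points higher with AICAR in control mice (p = 0.10, adjusted p = 0.18), and these are the smallest p-values that 5 against 5 and 3 against 3 mice allow. HSALR mice were 10.1 points above control mice after AICAR (p = 0.018, adjusted p = 0.089, exact permutation test), the smallest p for 3 against 5 mice, and 11.6 points above after vehicle, with overlap (p = 0.071, adjusted p = 0.15).

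The slow shares of the light chains were set by S450 in the vehicle-treated control mice. *Myl2* made up 7.11%, 5.95% and, in S450, 22.2% of the per-kilobase counts of *Myl2* and *Mylpf*, and *Myl3* made up 9.98%, 8.99% and 28.0% of those of *Myl1* and *Myl3*. Among the other 13 mice these shares were 3.39% to 9.30% and 4.47% to 13.1%. HSALR mice given vehicle differed from control mice by -6.27 points for *Myl2* (p = 0.071, adjusted p = 0.15, exact permutation test) and by -7.34 points for *Myl3* (p = 0.11, adjusted p = 0.18), and without S450 the differences were -1.04 and -1.17 points. None of the 15 comparisons of shares passed the adjusted threshold.

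**Figure D4:**
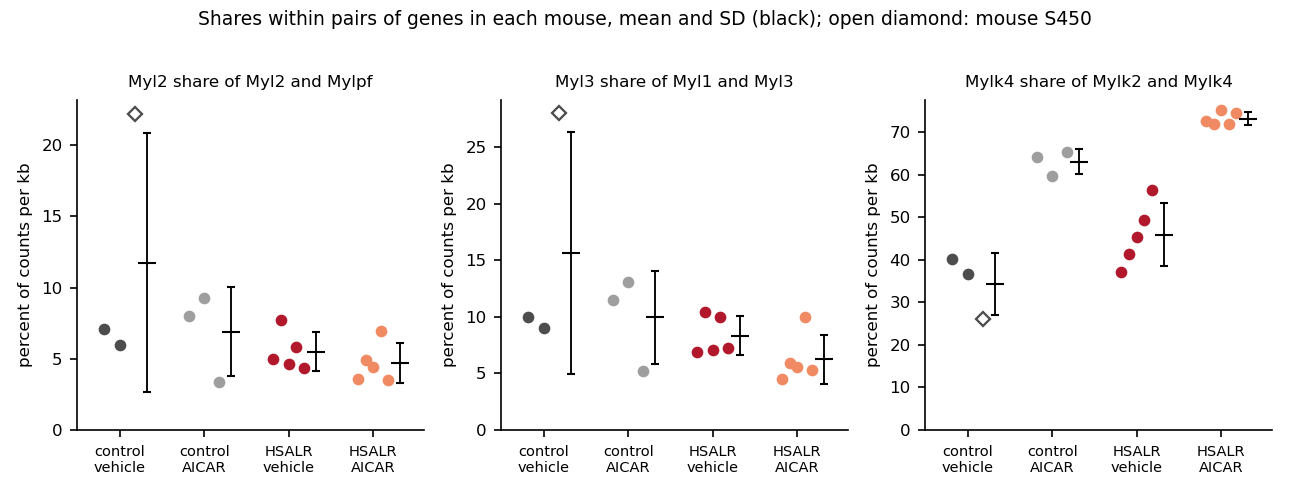
Share of *Myl2* in *Myl2* and *Mylpf*, of *Myl3* in *Myl1* and *Myl3*, and of *Mylk4* in *Mylk2* and *Mylk4* (y axes, percent of counts per kilobase) in each mouse of the 4 groups (x axis), with mean and SD in black and S450 as an open diamond. The *Mylk4* share lay at 59.8% to 75.2% in the AICAR groups and at 26.2% to 56.5% in the vehicle groups.

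Other genes that phosphorylate the regulatory chain, supply calmodulin or remove the phosphate were counted alongside. Of 5 other kinases, 2 were lower and 1 was higher in HSALR than in control mice after vehicle (median log2 fold change -0.18). *Mylk*, the smooth and non-muscle light chain kinase, was at 37.5, 39.8 and 34.7 normalized CPM in control mice and at 23.8 to 27.9 in HSALR mice, without overlap (-0.53 ± 0.09, adjusted p = 0.00069). It was also lower in HSALR mice after AICAR (-0.45 ± 0.09, adjusted p = 0.0038), where it was the only 1 of the 5 called (3 at an unadjusted p under 0.05). Along with it, 4 of 4 endothelial (median -0.51) and 2 of 6 smooth muscle markers (median -0.43) were lower after vehicle, and 2 of 4 and 1 of 6 after AICAR (medians -0.31 and -0.38). Their part in these differences was not tested. *Mylk3*, the cardiac kinase, was at 1.90 to 4.36 in control and 0.99 to 1.91 in HSALR mice (-1.06 ± 0.34, adjusted p = 0.029), and this call was lost without S450 (-0.56 ± 0.34, adjusted p = 0.26). *Dapk3*, a kinase of several contractile proteins, was higher (0.21 ± 0.07, adjusted p = 0.027), and this call too was lost without S450 (adjusted p = 0.094). None of the 5 was called for AICAR in HSALR or control mice with edgeR's quasi-likelihood test, nor was any at an unadjusted p under 0.05.

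The calmodulin genes *Calm2* and *Calm3* encode the same protein. *Calm3* was lower in HSALR than in control mice after vehicle, at 225 to 237 against 318, 324 and 301 (-0.43 ± 0.07, adjusted p = 0.00059). *Calm2* was lower after AICAR in HSALR mice, at 93.1 to 143 against 151 to 182 after vehicle (-0.63 ± 0.11, adjusted p = 0.0009). Neither was called by this test for genotype after AICAR or for AICAR in control mice, with 0 and 1 at an unadjusted p under 0.05.

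Of the 7 genes of myosin phosphatase and its inhibitors, 2 were higher and 1 was lower in HSALR mice after vehicle (median -0.0020). The catalytic subunit gene *Ppp1cb* was at 332 to 502 in HSALR and 522 to 699 in control mice (-0.56 ± 0.12, adjusted p = 0.0024). The inhibitor genes *Ppp1r14c* (0.36 ± 0.10, adjusted p = 0.013) and *Ppp1r14b* (0.31 ± 0.09, adjusted p = 0.018) were higher. After AICAR, the genotypes differed in the targeting subunit genes *Ppp1r12b* (0.49 ± 0.12, adjusted p = 0.0082) and *Ppp1r12c* (-0.32 ± 0.08, adjusted p = 0.0085). AICAR lowered *Ppp1r14c* in HSALR mice (-0.43 ± 0.08, adjusted p = 0.0018) and 0 of the 7 were called in control mice (1 at an unadjusted p under 0.05). Of 4 other light chain genes tested (*Myl7* was filtered out), the smooth muscle regulatory chain *Myl9* was lower in HSALR mice after vehicle (-0.40 ± 0.14, adjusted p = 0.043), beside lower smooth muscle markers (2 of 6 called, median -0.43, and 3 of 6 without S450, median -0.59). The non-muscle regulatory chains *Myl12a* (-0.48 ± 0.14, adjusted p = 0.018) and *Myl12b* (-0.42 ± 0.11, adjusted p = 0.013) were lower after AICAR in HSALR mice. In that comparison 1 of 6 smooth muscle, 1 of 3 fibroblast and 1 of 4 leukocyte markers (the last lost without S450) were lower and 1 of 4 endothelial markers was higher, and their part was not tested. *Myl12a* and *Myl12b* were called higher in HSALR than in control mice after vehicle once S450 was left out (0.65 ± 0.13 and 0.55 ± 0.11), where S450 had 417 normalized CPM of *Myl12a* and the other control mice 256 and 242.

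**Figure D5:**
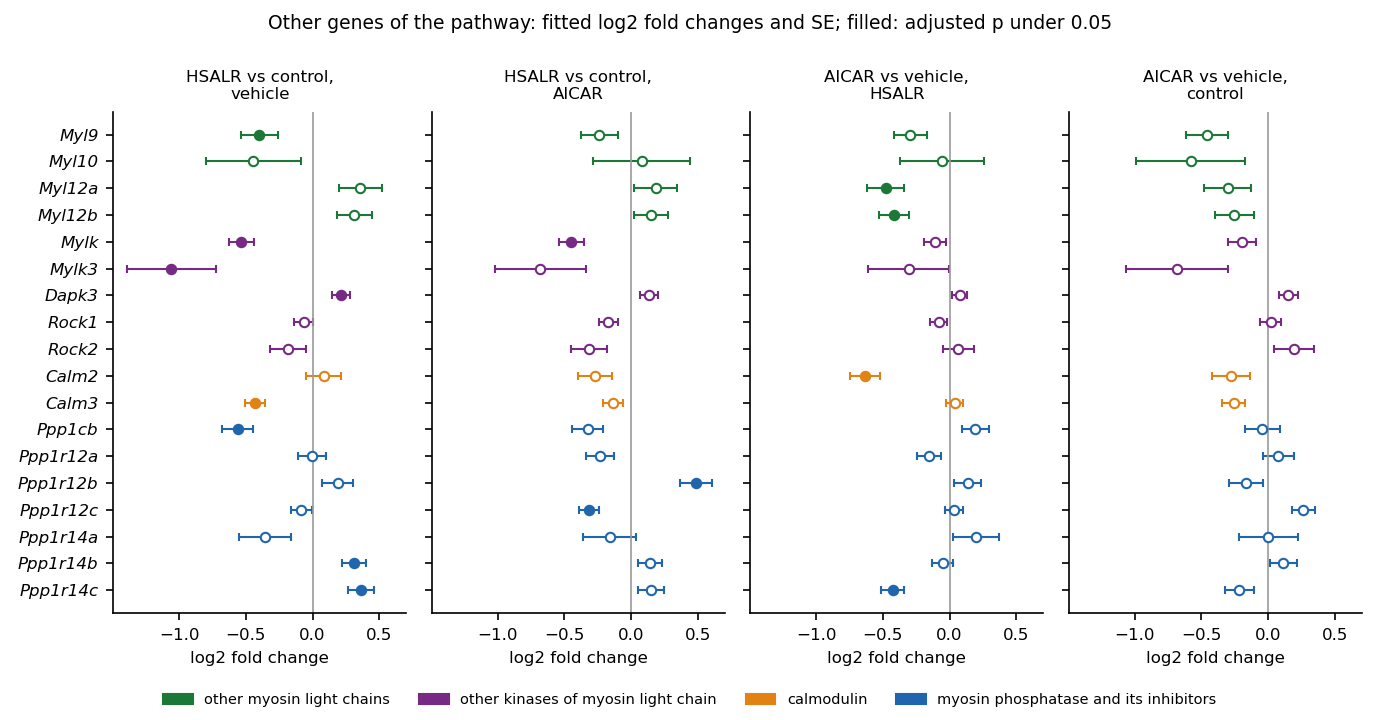
Log2 fold change with SE (x axis) of 18 other light chain, kinase, calmodulin and phosphatase genes (y axis, coloured by list) in the 4 comparisons; filled circles have an adjusted p-value under 0.05. *Mylk* and *Ppp1cb* were called lower in HSALR mice after vehicle, and *Calm2*, *Ppp1r14c*, *Myl12a* and *Myl12b* lower with AICAR in HSALR mice, while none of the 18 was called for AICAR in control mice.

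Among the 7 striated myosin heavy chain genes, 1 was higher and 2 were lower in HSALR mice after vehicle (median -0.28). *Myh1*, the fast IIx heavy chain, was at 9473 to 17610 in HSALR and at 5408, 4230 and 3513 in control mice (1.52 ± 0.19, adjusted p = 4.1e-05), whereas the fast light chains *Myl1* and *Mylpf* did not pass the test. It was also higher in HSALR mice after AICAR (1.5 ± 0.19, adjusted p = 7.8e-05), where *Myh4* was lower (-0.67, adjusted p = 0.018). The slow heavy chain *Myh7* (-1.37 ± 0.36, adjusted p = 0.011) was lower, as *Myl2* was, and its value without S450 was -0.62 ± 0.31 (adjusted p = 0.17). *Myh6*, the other of the 2, was not called without S450 either. AICAR lowered 1 of the 7 in control mice (*Myh3*, -1.27, adjusted p = 0.042) and none in HSALR mice, where none had an unadjusted p under 0.05 either. Without S450 *Myh3* was at -0.42 ± 0.24 (adjusted p = 0.31) in control mice and was called in HSALR mice (-0.52 ± 0.17, adjusted p = 0.033). Of the fast-fibre markers, 0 of 8 were called between genotypes after vehicle with edgeR's quasi-likelihood test (1 of 8 at an unadjusted p under 0.05, and 2 lower without S450). For AICAR in control mice 0 of 8 were called (3 at an unadjusted p under 0.05), and 4 were called lower without S450. In the genotype comparison after AICAR and for AICAR in HSALR mice, 1 of 8 was lower in each (*Myh4* and *Pvalb*).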

How the data were processed

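RNA was extracted from powdered *gastrocnemius* muscle of 16 mice and sequenced as single-end reads. The authors deposited counts, raw whole numbers per Entrez gene, made by mapping to mm10 with STAR 2.5.2a (submitters' processing notes) and counting, with QuasR, reads that start in any exon of a RefSeq gene, each multi-mapping read at a single location. Strand use in counting was not given in the sources used here. Entrez identifiers were matched to RefSeq symbols (GRCm38.p6) for 24374 of 24454 genes, and promoter windows came from RefSeq of the same build.

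Groups came from the sample labels. Counts were filtered with edgeR's filterByExpr, scaled with TMM and fitted for all 4 groups with the quasi-likelihood test (R 4.3.3, edgeR 4.0.16). P-values were adjusted over 15487 genes (Benjamini-Hochberg, threshold 0.05), and the standard error is the log2 fold change over the root of the F statistic. P-values measure the spread between mice. Shares were compared with two-sided exact permutation tests, adjusted over 15 comparisons. The smallest p is 0.018 for 3 against 5 mice, 0.0079 for 5 against 5 and 0.1 for 3 against 3. Likeness used log2(CPM + 0.5), centred, over genes outside the 9 with a mean count of at least 50. The steps were tested on simulated data.

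The 9 genes and the gene lists were chosen with earlier results of these data known. All 9 genes are named, with at most 3 genes per list and comparison (lowest adjusted p; *Calm2* and *Calm3* in each) and 2 genes of like pattern per gene called. *Tnnt1*, the markers of immature muscle and other genes named outside this rule were chosen after their values were seen. Alternatives were RLE, upper-quartile, library-size and *Tbp* scaling, other filters (none, or at least 10 counts in every library), a robust fit, the likelihood ratio test, limma 3.58.1 with voom, DESeq2 1.42.0, an epidermal covariate, leaving out each mouse and fits that held the 2 compared groups alone. A further gene of these lists is not reported here. List counts without S450 were added after seeing the data. In 26 pairs of mice of the same group, counts differed beyond sampling noise (chi-square per degree of freedom 24 to 134), so none were copies. Mice of different groups share no identifier.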

Additional observations from a re-analysis of the deposited data

Results flagged for a closer look

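The *Myl3* share of the per-kilobase counts of *Myl1* and *Myl3* stood apart in 1 HSALR mouse given AICAR, S462, at 10% where the other 4 mice of its group had 4.47% to 5.93%. The gap to its nearest neighbour was 0.736 of the range of the group. Among 24 groups of 5 values checked, this was the only 1 in which a mouse stood apart, and chance gives about 1 in 20. In the same mouse *Myl2* (468) and *Myl3* (439 normalized CPM) were the highest of the group.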

How the results depend on the processing

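Of 1497 log2 fold changes of the 9 genes under alternatives, 1440 kept their direction and side of the threshold or changed sign uncalled (62), 43 lost a call, 14 gained one, and none reversed a call. No comparison of shares was called at first, so the 135 alternative values could end no call, and none of them gained one. The few mice limit how small these p-values can be. Between genotypes after vehicle, 2 of the 9 genes were called relative to *Tbp* (*Myl4*, *Myl6b*) and with limma and voom (*Myl4*, *Mylk2*), and 1 with only the groups compared (*Myl4*), in place of 4, while relative to *Tbp* 5295 genes were called in place of 4169. After AICAR, 2 were called with library size only, the likelihood ratio test, DESeq2 and only the groups compared (*Mylk2* in addition to *Myl4*). For AICAR in control mice, 1 (*Mylk2*) was called with the robust fit, the epidermal covariate, voom and only the groups compared. Between HSALR mice given AICAR and control mice given vehicle, 3 were called with the epidermal covariate (*Myl2*, *Myl3*, *Mylk2*) in place of 6. Leaving out each mouse gave 2 to 5, 1 to 2, 1 to 2 and 2 to 6 in these 4 comparisons, lowest without S450 in the first and last. The causes were not tested.

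Over all genes, 3379 were called between genotypes after AICAR, with 1396 relative to *Tbp* and 2214 (without S447) to 3790 (without S460) when each mouse was left out. AICAR in HSALR mice called 4121 genes and 2230 with the epidermal covariate. AICAR in control mice called 2039, 1164 with only the groups compared and 1143 (without S449) to 2186 without each mouse. The difference of the AICAR effects called 107 genes, with 381 relative to *Tbp*, 322 by the likelihood ratio test, 57 with the epidermal covariate, 536 by DESeq2 and 15 (without S448) to 371 (without S460) without each mouse. Scaling to *Tbp* moved the median of all genes to 0.28 between genotypes after vehicle, 0.19 for AICAR in control mice, -0.13 in HSALR mice and -0.32 for their difference, and the share of calls that were higher was 95.4%, 94.3%, 25.2% and 1.57%, against 57.2%, 63.8%, 51.3% and 29.9%. With library size only that share was 30.9% for AICAR in HSALR and 50.7% in control mice, and with upper-quartile factors 45.1% in control mice and 40.7% for the difference. Between HSALR mice given AICAR and control mice given vehicle it was 82% relative to *Tbp* and 43.5% with library size only, against 55.9%.

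No paired analysis was possible because mice of different groups share no identifier. DESeq2 gave no adjusted p for *Myl6b* in any of the 6 comparisons. With 3 control mice per treatment, the call of *Myl6b* between genotypes after vehicle was lost without 1 mouse (S450), and that of *Myl2* without any 1 of 5 mice (S450, S451, S453, S455 or S459). At 64890014 or more counts per library, the 9 genes had at least 230 counts in every library, so counting error was small beside the spread between mice.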
